A study of Mus musculus with 7 samples.

Results

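Cyclic nucleotide phosphodiesterases break down cyclic AMP and cyclic GMP and so set how long and how far these second messengers act inside a cell. The families differ in substrate and control: calcium and calmodulin activate the PDE1 enzymes, cyclic GMP stimulates PDE2A, PDE4, PDE7 and PDE8 enzymes are specific for cyclic AMP, and PDE10A hydrolyses both nucleotides. In the hippocampus they act on the cyclic AMP signal that takes part in synaptic plasticity and memory, while PDE10A, PDE1B and PDE7B are best known from striatal medium spiny neurons.

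The genes described here are Pde1a, Pde1b, Pde1c, Pde2a, Pde4a, Pde4b, Pde4d, Pde7b, Pde8b and Pde10a. These 10 names matched 11 of the 38924 records of the deposited gene table and 353 of the 359565 deposited exon bins, which are stretches of exon that no annotated boundary cuts. The name Pde4d stands on a pair of records: the long gene, and a record with 1 bin, ENSMUSG00000074661.2, at chr13:109954109-109955963 (mm10), which starts directly downstream of the long gene's end and is called the Pde4d downstream record here.

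The 7 libraries were polyadenylated RNA of adult mouse hippocampus. They comprised 3 libraries of Ammon's horn (the CA fields) from mice homozygous for a null allele of Khdrbs3, written KO here, 1 library of wild-type dentate gyrus, and 3 libraries of Ammon's horn from wild-type mice, written WT. Khdrbs3 encodes T-STAR, an RNA-binding regulator of splicing, and mice carrying the null allele had been backcrossed over 8 generations to C57Bl6. Whether every library is a different animal is not stated, so the p-values measure only the spread between these libraries, which may be technical. Each library held 50230733 to 67692326 counts in the gene table and 29698245 to 39904606 in exon bins. Khdrbs3 as a whole gene was not lost from the KO libraries: it had 198, 203 and 197 CPM (counts relative to the library's scaled total) in KO libraries and 78.8 CPM in dentate gyrus, against 142, 143 and 134 CPM in WT Ammon's horn. Its exon bin 2 was nearly empty, with 6, 9 and 7 reads in KO libraries and 506 in the dentate gyrus library, against 808, 1103 and 964 reads in WT Ammon's horn; the labels do not say which exons the allele lacks. The granule cell and CA1 markers were each higher in their own tissue. The 10 dentate granule cell markers summed to 1059 CPM in the dentate gyrus and 231 to 264 CPM in WT Ammon's horn. The 7 CA1 pyramidal cell markers summed to 115 CPM in the dentate gyrus and 799 to 833 CPM in WT Ammon's horn. Those of CA2 and CA3 pyramidal cells were not as a sum. Their 9 markers summed to 1309 CPM in the dentate gyrus, against 884 to 980 CPM in WT Ammon's horn. Nptx1 alone made up most of that sum, at 871 CPM in the dentate gyrus and 525, 524 and 592 CPM in WT Ammon's horn. The 8 oligodendrocyte markers summed to 1504 CPM in the dentate gyrus, against 4307 to 4469 CPM in WT Ammon's horn. The 8 choroid plexus markers summed to 793, 21.3 and 736 CPM in KO libraries and to 265 CPM in the dentate gyrus. In WT Ammon's horn they summed to 154, 41.6 and 24.3 CPM.

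Levels below are CPM after TMM scaling over the 7 libraries, from the gene table. Its records carry the outer coordinates of each gene, and how reads inside them were counted is not given in the sources used here. Such values compare a gene between libraries. To compare genes with each other, the exon-bin reads were divided by exon length, giving CPM per kilobase. On that per-length scale Pde2a was highest in WT Ammon's horn, at 156 ± 1.46, followed by Pde1a at 59.6 ± 2.9 and Pde1b at 28.3 ± 0.601 (SD, n = 3). Pde8b, Pde4a and Pde4b came next, at 11.4 ± 0.206, 10.7 ± 0.182 and 9.47 ± 0.302 CPM per kilobase, and Pde10a stood at 4.84 ± 0.204. Pde4d, Pde7b and Pde1c were lowest, at 2.72 ± 0.351, 1.27 ± 0.194 and 0.534 ± 0.0625. Library values of neighbours in this order did not overlap in WT Ammon's horn. The order was the same in KO means, where the library values of Pde4a and Pde4b overlapped. In the dentate gyrus Pde2a, at 101 CPM per kilobase, was followed by Pde1b at 76.0 and Pde1a at 42.5, so Pde1b and Pde1a stood in the opposite order. Pde10a, Pde4b and Pde7b lay close together there, at 6.89, 6.88 and 6.25. The exon lengths of Pde1c, Pde4a, Pde8b and Pde10a are approximate, because their bins could not be rebuilt from the annotation at hand. For Pde1b and Pde2a the rebuilt bins matched in number but not at the gene's outer ends, which were taken from the deposited record.

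Loss of Khdrbs3 moved none of these genes past the test. Of the 11 records, 0 were called in KO mice, where a gene is called at a Benjamini-Hochberg adjusted p under 0.05 in edgeR's quasi-likelihood F test over all genes tested; of all 22830 genes tested, 0.0745% were called. DESeq2 and limma-voom also called 0 of the 11, where they called 119 and 10 of all 22830 genes. On the exon-bin sums edgeR called 0 of the 11 as well, where 0.0523% of all genes were called. At an unadjusted p under 0.05 there was 1 record of the 11, against 8.38% of all genes. The log2 fold changes of the 11 records ran from -0.062 to 0.15 with a median of 0.029, and the median over all genes was 0.0015. The 95% intervals of the fold change lay between 0.792 and 1.33 over all 11 records.

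**Figure D1:**
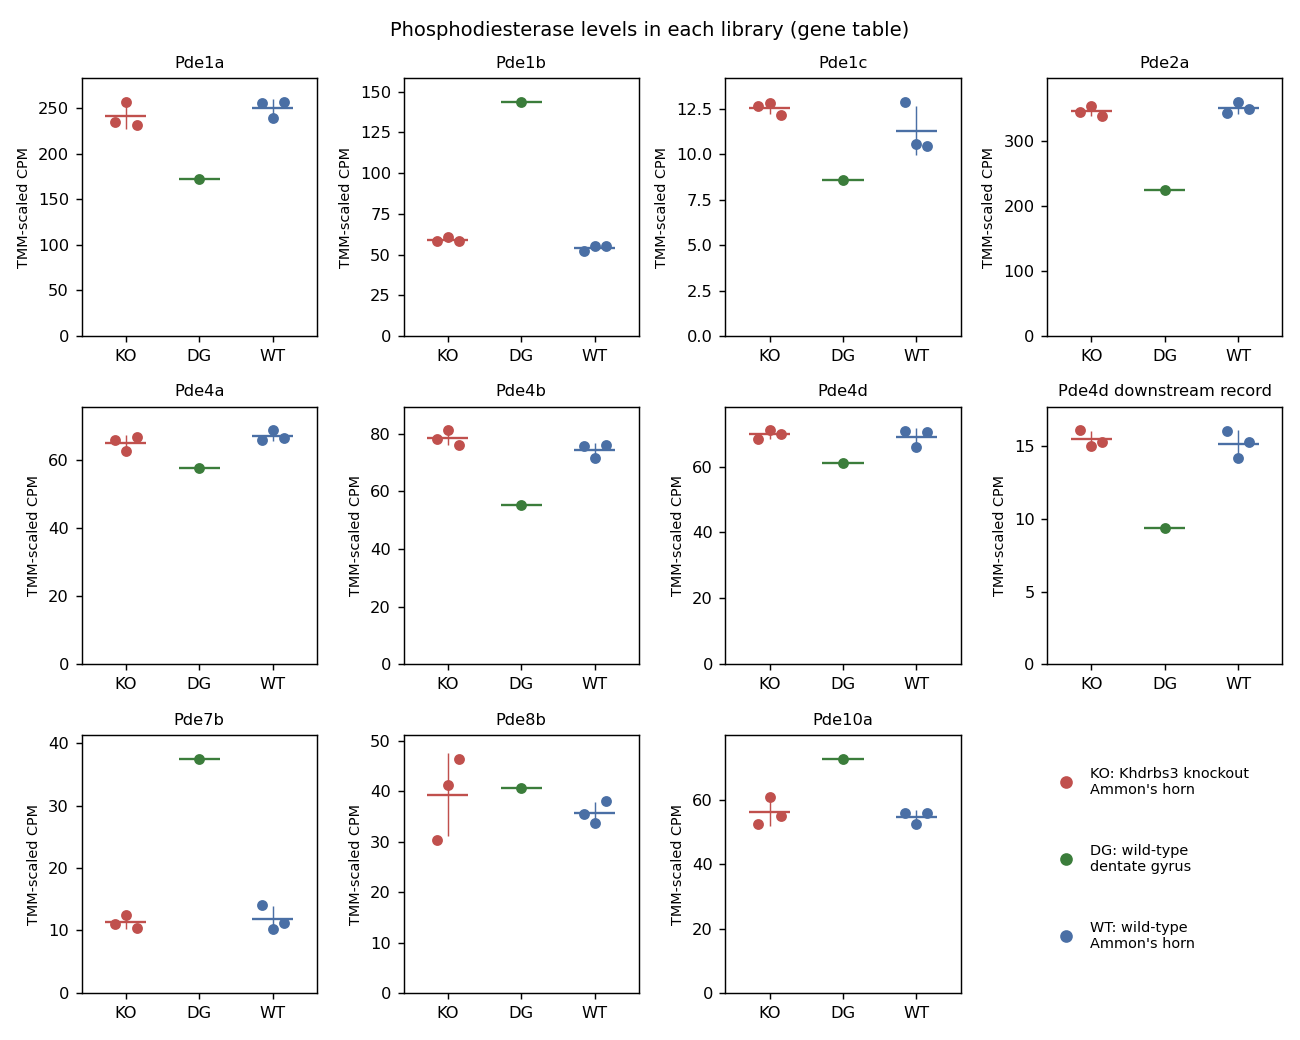
TMM-scaled CPM of the 11 records in each library, with a panel for each record, an axis from 0, and KO Ammon's horn, dentate gyrus (DG) and WT Ammon's horn side by side. Points are libraries, horizontal lines group means and vertical lines SD (n = 3, none for the 1 dentate gyrus library); Pde1b at 144 CPM and Pde7b at 37.5 CPM stand far above the Ammon's horn libraries in the dentate gyrus, while no record was called between KO and WT Ammon's horn.

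The record with an unadjusted p under 0.05 was Pde1b, which encodes a calcium- and calmodulin-dependent enzyme. Pde1b had 58.4, 60.8 and 58.3 CPM in KO mice, against 52.3, 55.1 and 55.0 CPM in WT Ammon's horn. Every knockout library lay above every wild-type one, by a log2 fold change of 0.13 (SE 0.048, edgeR, unadjusted p 0.0219, adjusted p 0.518). Pde8b, a cyclic AMP-specific enzyme, had the largest SD relative to its mean among the KO libraries. Its level was 30.3, 41.2 and 46.4 CPM in KO mice (SD 8.21), against 35.5, 33.7 and 38.0 CPM in WT Ammon's horn (SD 2.14). The groups overlapped, and the log2 fold change was 0.14 (SE 0.13, adjusted p 0.81 in edgeR). Its lowest knockout value and its highest both came from libraries with high choroid plexus markers, at 793 and 736 CPM; the part of those markers in the Pde8b values was not tested. Without both of these libraries 0 records were called, in a fit with only 1 KO library, taken to vary as the WT libraries do, so it says little about the part of those libraries.

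In Pde4b too, every KO library lay above every WT one, the nearest at 76.1 and 75.9 CPM; its values are given with the dentate gyrus comparison. Pde2a averaged 345 ± 7.72 CPM in KO mice and 350.3 ± 8.85 CPM in WT Ammon's horn, and Pde1a 241 ± 13.5 CPM and 251 ± 9.76 CPM (SD, n = 3 each). Pde1c averaged 12.6 ± 0.323 CPM in KO mice and 11.3 ± 1.37 CPM in WT Ammon's horn. Of the cyclic AMP-specific enzymes, Pde4a averaged 65.2 ± 2.20 CPM in KO mice and 67.1 ± 1.48 CPM in WT Ammon's horn, Pde4d 69.7 ± 1.38 CPM and 69.0 ± 2.67 CPM, and Pde7b 11.3 ± 1.01 CPM and 11.8 ± 2.07 CPM. In each of these 6 genes the knockout and wild-type libraries overlapped. Pde10a averaged 56.1 ± 4.28 CPM in KO mice and 54.7 ± 2.04 CPM in WT Ammon's horn, and the Pde4d downstream record 15.5 ± 0.560 CPM and 15.2 ± 0.918 CPM, again with overlap.

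In the dentate gyrus, by contrast, 8 of the 11 records were called, in a genome-wide background where 22% of 24486 genes tested were. The higher records were Pde7b, Pde1b and Pde10a, 3 of 11, where 11.2% of all genes were called higher. The lower ones were Pde2a, Pde1a, Pde4b, Pde4a and the Pde4d downstream record, 5 of 11, where 10.9% of all genes were called lower. At a threshold of at least 2-fold, 2 records were called, Pde7b and Pde1b, against 3.98% of all genes. The median log2 fold change was -0.22 over the 11 records and -0.013 over all genes. The genes were chosen with earlier results of these data known, and Pde4d stands on a pair of the records. These counts are therefore not a result about phosphodiesterases as a group. Each of these comparisons rests on 1 dentate gyrus library, taken to vary as much as the others do, and in tissue samples fewer cells of a type and less RNA per cell cannot be told apart.

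**Figure D2:**
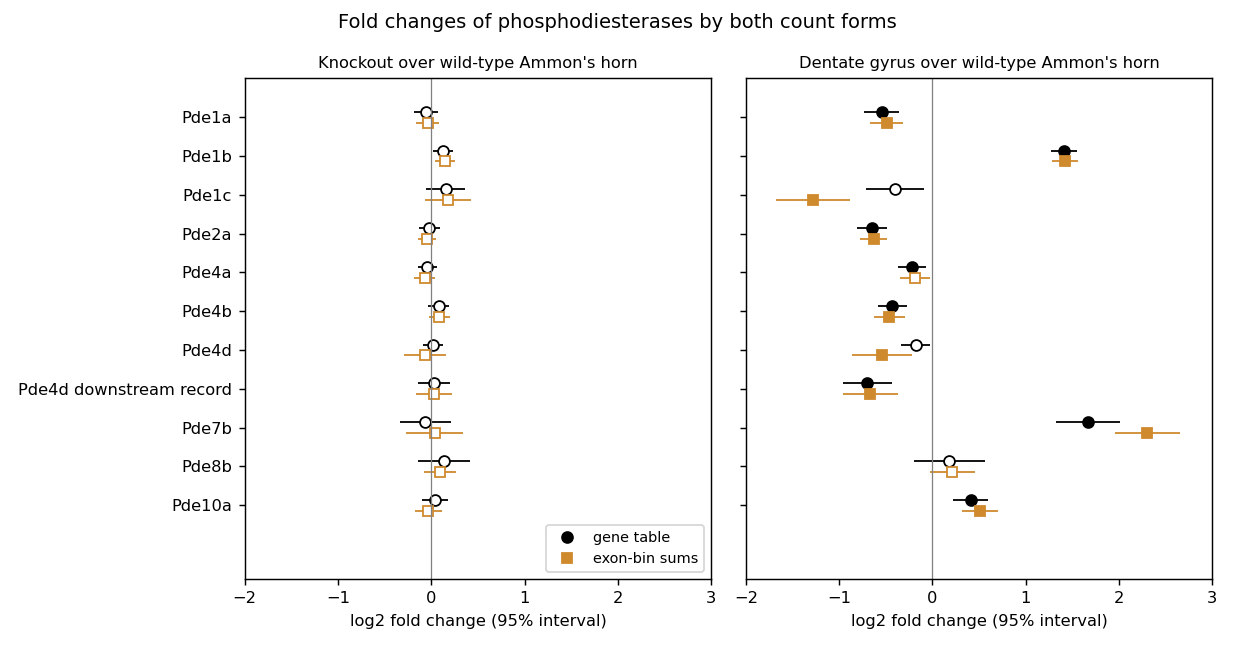
Log2 fold changes with 95% intervals for the 11 records, KO over WT Ammon's horn on the left and dentate gyrus over WT Ammon's horn on the right, from the gene table (circles) and from exon-bin sums (squares). Filled symbols have an adjusted p under 0.05: none on the left, and 8 circles and 9 squares on the right.

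Among the calmodulin-activated enzymes, the 3 genes differed in direction. Pde1b, the second largest change of all 11 records, had 144 CPM in the dentate gyrus, against 52.3, 55.1 and 55.0 CPM in WT Ammon's horn. That is 2.65-fold higher (95% interval 2.41 to 2.92; log2 fold change 1.41, SE 0.062, adjusted p 9.21e-07 by edgeR). Its exon-bin sums gave the same size of change, a log2 fold change of 1.42 (SE 0.065). All 16 bins of Pde1b were tested for usage, the change of a bin relative to the change of its whole gene in the dentate gyrus. Their usage log2 fold changes lay between -0.16 and 0.16, with none called. Pde1a, whose enzyme prefers cyclic GMP, had 172 CPM in the dentate gyrus, against 256, 239.7 and 257 CPM in WT Ammon's horn. The dentate gyrus value lay under every Ammon's horn library, with a log2 fold change of -0.54 (SE 0.086, adjusted p 0.00136 by edgeR). The distal first exons of Pde1a (bins 32 to 35) held 897 reads in the dentate gyrus, 1016, 1268 and 894 in KO mice and 967, 1284 and 1325 in WT Ammon's horn. Its internal start, whose first exon is bins 26 and 27 (chr2:79908345-79908433, mm10), held 0 reads in all 7 libraries, of 82069 exon reads of the gene, which allows a share of up to 0.00366% per bin. Such limits and the intervals of shares cover counting error only.

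Pde1c gave different answers in the 2 deposited count forms. In the gene table it had 8.57 CPM in the dentate gyrus, against 12.9, 10.6 and 10.5 CPM in WT Ammon's horn, a log2 fold change of -0.40 (SE 0.14) that was not called (adjusted p 0.0691 by edgeR). In the exon bins it had 116 reads in the dentate gyrus and 311, 322 and 278 in KO mice, against 274, 303 and 260 in WT Ammon's horn. By exon-bin sums, which call 29.3% of all genes and 9 of the 11 records, the log2 fold change was -1.28 (SE 0.18, adjusted p 0.000315 by edgeR), a fold of 0.413 with a 95% interval of 0.313 to 0.544. The exon-bin reads amounted to 21.8% of the gene-table count in the dentate gyrus and to 40.4% to 45.0% in the 6 Ammon's horn libraries. The 2 forms need not count reads alike: for the Pde4d downstream record, which is 1 bin, the bin held 50.9% to 51.6% of the gene-table count, and for Pde2a the bins held 106% to 112%. The cause of these ratios was not tested. Bin 5 alone held 58 of the 116 dentate gyrus reads, against 135, 130 and 128 reads in WT Ammon's horn, and none of the 6 tested bins was called for usage. The enzyme that Pde1c encodes hydrolyses both nucleotides.

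Pde2a, the gene with the highest level per length, encodes the cyclic GMP-stimulated enzyme. It had 224 CPM in the dentate gyrus and 345, 353 and 338 CPM in KO mice, against 342, 359.7 and 349 CPM in WT Ammon's horn. The dentate gyrus library was below all 6 others, with a log2 fold change of -0.65 (SE 0.074, adjusted p 0.000201 by edgeR), and the exon-bin sums gave -0.63 (SE 0.066). PDE2A is made in forms that differ in their first amino acids, which decide whether the enzyme attaches to membranes, and these forms come from separate first exons.

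Of the 229 exon bins tested in the dentate gyrus, 1 was called for usage, at a background of 0.213% of 169072 bins; at an unadjusted p under 0.05 there were 12, where 3.89% of all bins passed. The called bin was Pde2a bin 2. In the rebuilt bins it is the most distal first exon (chr7:101421709-101421995, mm10, plus strand), and the first exon of both transcripts used. The rebuilt bins matched the deposited ones in number but not at the gene's outer ends. Bin 2 had 104 reads in the dentate gyrus and 84, 74 and 47 in KO mice, against 66, 76 and 87 reads in WT Ammon's horn. These are 0.692% of the gene's exon reads in the dentate gyrus (exact 95% Clopper-Pearson interval 0.566% to 0.838%) and 0.331% ± 0.0423 (SD, n = 3) in WT Ammon's horn. The usage log2 fold change was 1.07 (SE 0.18, edgeR diffSpliceDGE adjusted p 0.00135). So while the gene as a whole was lower in the dentate gyrus, the reads of this first exon were not lower. Bin 3 (chr7:101451402-101451468), the next exon, had a usage log2 fold change of -0.13 (SE 0.14), and the 33 tested bins of Pde2a other than bin 2 lay between -0.33 and 0.30.

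**Figure D3:**
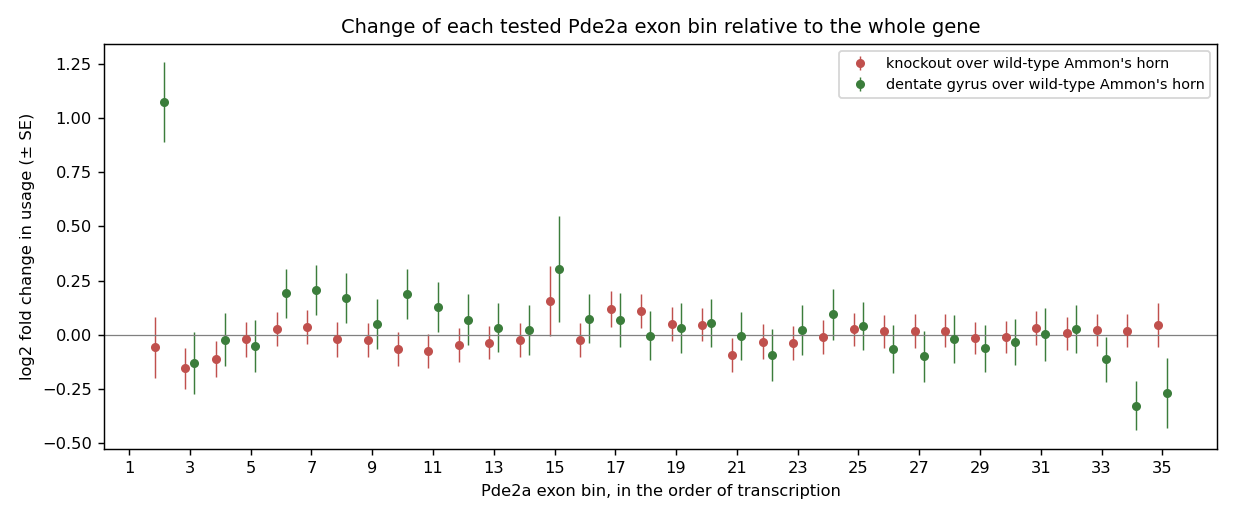
Usage log2 fold change of each tested Pde2a exon bin (± SE), in the order of transcription, for KO over WT Ammon's horn and dentate gyrus over WT Ammon's horn. Bin 2 in the dentate gyrus stands at 1.07, apart from the 33 other bins between -0.33 and 0.30.

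The RefSeq promoter table (GRCm38.p6) lists 5 start windows for Pde2a, each of 250 bases before and 50 after a start. The exon bins cover the most distal of these starts, and first exons at the 4 other starts have no bin of their own, so their reads could not be set beside those of bin 2. The windows at the distal start (chr7:101421441-101421740, plus strand) and at an internal start (chr7:101450270-101450569, plus strand) are shown because the called bin lies at the distal one, and because the internal one is the only window of the 5 that holds the motif described next. Capitals mark TGACG, the core of the cyclic AMP response element, searched on both strands and so also read as CGTCA.

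Pde2a distal start window: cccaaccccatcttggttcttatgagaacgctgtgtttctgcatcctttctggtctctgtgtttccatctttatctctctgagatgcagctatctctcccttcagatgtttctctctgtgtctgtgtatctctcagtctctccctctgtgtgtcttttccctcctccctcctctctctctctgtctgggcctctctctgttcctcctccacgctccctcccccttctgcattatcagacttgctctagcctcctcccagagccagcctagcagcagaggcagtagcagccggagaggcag
Pde2a internal start window: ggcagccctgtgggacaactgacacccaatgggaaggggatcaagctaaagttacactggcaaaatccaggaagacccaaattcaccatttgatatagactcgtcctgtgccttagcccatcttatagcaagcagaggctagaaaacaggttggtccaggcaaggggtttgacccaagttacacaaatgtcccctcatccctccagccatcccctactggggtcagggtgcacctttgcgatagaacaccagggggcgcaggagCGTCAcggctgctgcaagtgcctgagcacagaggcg

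The motif stood at 1 place in the internal window shown and was absent from the distal window and from the 3 other internal ones. It was found in 5 of the 31 windows listed for the 10 genes and in 20.8% of all 32851 windows of the table. The full element TGACGTCA, which contains the shorter motif, was found in 0 of the 31 and in 1.79% of all windows. Transcripts from the distal start and from an internal start were compared. The coding parts of their first exons differ, and their second coding exon is shared. Transcripts of the other starts were not compared. From GENCODE M21 transcripts (GRCm38), the coding part of bin 2 is chr7:101421925-101421995, that of the internal first exon chr7:101450628-101450728, and the shared exon is bin 3; capitals mark the start codon.

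Pde2a distal first coding exon: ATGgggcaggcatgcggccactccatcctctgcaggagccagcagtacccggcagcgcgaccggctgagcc
Pde2a internal first coding exon: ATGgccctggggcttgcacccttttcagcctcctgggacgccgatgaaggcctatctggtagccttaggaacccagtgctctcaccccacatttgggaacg
Pde2a shared second coding exon: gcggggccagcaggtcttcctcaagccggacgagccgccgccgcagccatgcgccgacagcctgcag

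The cyclic AMP-specific PDE4 enzymes are the targets of rolipram. Pde4b, Pde4a and the Pde4d downstream record were called lower in the dentate gyrus, and the long Pde4d record was not called in the gene table. Pde4b had 55.2 CPM in the dentate gyrus, against 75.7, 71.4 and 75.9 CPM in WT Ammon's horn. Its log2 fold change was -0.43 (SE 0.072, adjusted p 0.00199 by edgeR), and the dentate gyrus library lay below all 6 others. In KO mice Pde4b had 78.3, 81.1 and 76.1 CPM, a log2 fold change of 0.079 (SE 0.050, adjusted p 0.709 in edgeR). Pde4a had 57.6 CPM in the dentate gyrus, against 66.0, 68.8 and 66.6 CPM in WT Ammon's horn, a log2 fold change of -0.22 (SE 0.069, adjusted p 0.0432 by edgeR). This call was near the threshold and held in 3 of 13 alternative analyses, with adjusted p between 0.0388 and 0.117.

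Pde4d had 60.9 CPM in the dentate gyrus, against 70.6, 65.9 and 70.4 CPM in WT Ammon's horn. The log2 fold change of -0.18 (SE 0.070) was not called (adjusted p 0.0933 by edgeR). Its exon-bin reads were 792 in the dentate gyrus, against 893, 1229 and 1336 in WT Ammon's horn, and by exon-bin sums Pde4d was called lower, with a log2 fold change of -0.54 (SE 0.15, adjusted p 0.0171 by edgeR). Pde4d spans 1503514 bases, and exon reads were 20.9% to 31.7% of its gene-table count. The gene Rps3a3 lies within it on the same strand and held 726, 737 and 668 reads in KO mice, 532 in the dentate gyrus and 813, 777 and 776 in WT Ammon's horn. With these reads taken off, the Pde4d log2 fold change in the dentate gyrus was -0.090 (adjusted p 0.407 by edgeR). That step takes every Rps3a3 read to be counted in Pde4d as well, which was not tested. The Pde4d downstream record had 9.34 CPM in the dentate gyrus, against 16.0, 14.2 and 15.3 CPM in WT Ammon's horn. Its log2 fold change was -0.70 (SE 0.12, adjusted p 0.00198 by edgeR), negative as in both count forms of the long record.

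No bin of Pde4b was called for usage by edgeR in the dentate gyrus. The bins 8 and 9 (chr4:102255003-102255229 and chr4:102255230-102255456, mm10), first exons of 2 and 3 annotated transcripts, had 12 and 13 reads in the dentate gyrus. In WT Ammon's horn bin 8 had 21, 42 and 39 reads and bin 9 had 30, 44 and 49. Their usage log2 fold changes were -1.02 (SE 0.33) and -1.18 (SE 0.31), with adjusted p 1.0 and 0.563 by edgeR, so neither was called. Bin 5 (chr4:102194836-102195074), an exon of 3 transcripts with more distal starts, had 19 reads in the dentate gyrus, against 8, 11 and 10 in WT Ammon's horn. Its usage log2 fold change was 1.43 (SE 0.37, adjusted p 0.488 by edgeR); limma-voom with diffSplice called it, with an adjusted p of 0.0477.

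Pde7b, a cyclic AMP-specific enzyme, had the largest change of all 11 records. Its level was 37.5 CPM in the dentate gyrus and 11.1, 12.4 and 10.4 CPM in KO mice, against 14.1, 10.2 and 11.2 CPM in WT Ammon's horn. The dentate gyrus library was 3.17-fold higher than WT Ammon's horn (95% interval 2.50 to 4.02; log2 fold change 1.67, SE 0.15, adjusted p 5.16e-05 by edgeR). By exon-bin sums the difference was 4.93-fold (95% interval 3.87 to 6.28; log2 fold change 2.30, SE 0.16). The exon reads were 1595 in the dentate gyrus, against 305, 301 and 355 in WT Ammon's horn, and amounted to 68.4% of the gene-table count in the dentate gyrus and 41.2% to 53.1% in the Ammon's horn libraries. The ratio of the 2 forms was thus higher in the dentate gyrus for Pde7b and lower there for Pde1c.

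Reads lay at both annotated starts of Pde7b in every library, with more at the distal one. The distal first exon (bins 22 to 24, minus strand, bin 23 at chr10:20724697-20725032, mm10) held 116 reads in the dentate gyrus, 15, 12 and 13 in KO mice, and 14, 16 and 19 in WT Ammon's horn. The proximal first exon (bins 17 and 18, chr10:20547891-20548470) held 6 reads in the dentate gyrus, 7, 3 and 3 in KO mice, and 9, 5 and 8 in WT Ammon's horn. Reads at the proximal start were few in all 7 libraries and not higher in the dentate gyrus, while those at the distal start were. Among 14 tested bins, usage log2 fold changes lay between -0.14 and 0.52 with none called; the largest belonged to bin 23, at 0.52 (SE 0.38, adjusted p 1.0 by edgeR). Bins 17 and 18 had too few reads to be tested, so the difference between the starts has no test. The start of the coding sequence from the distal exon (chr10:20724676-20724696, bin 22) and the next exon (chr10:20619130-20619190, bin 21) is shown because the reads of this start were higher in the dentate gyrus, with the start codon in capitals (GENCODE M21, GRCm38).

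Pde7b distal first coding exon: ATGtcttgtttaatggttgag
Pde7b second coding exon: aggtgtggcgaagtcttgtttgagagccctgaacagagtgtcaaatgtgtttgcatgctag

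These exons held 44 and 53 reads in the dentate gyrus, against 3, 6 and 8 and 3, 7 and 9 reads in WT Ammon's horn.

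**Figure D4:**
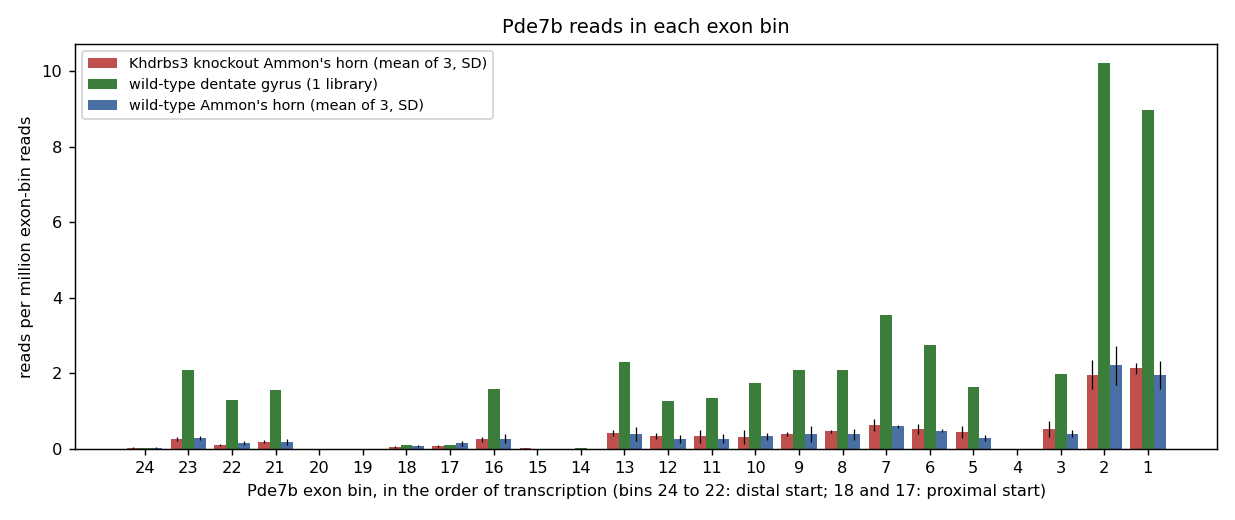
Reads in the 24 bins of Pde7b, scaled to the library's exon-bin total, in the order of transcription, as means of 3 KO and 3 WT Ammon's horn libraries with SD and as the value of the 1 dentate gyrus library. The dentate gyrus bars are the highest in every bin from 23 to 1 that holds more than a few reads, and the proximal start, bins 18 and 17, is near 0 in all groups.

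Pde8b encodes a cyclic AMP-specific enzyme of high affinity. It had 40.6 CPM in the dentate gyrus and 30.3 to 46.4 CPM in KO mice, against 35.5, 33.7 and 38.0 CPM in WT Ammon's horn. The dentate gyrus value lay within the range of the KO libraries, and the log2 fold change of 0.18 (SE 0.17, adjusted p 0.509 by edgeR) was not called, with a 95% interval of the fold from 0.869 to 1.48. Pde10a, the enzyme of both nucleotides, had 72.7 CPM in the dentate gyrus and 52.5, 60.8 and 54.9 CPM in KO mice, against 55.9, 52.3 and 55.8 CPM in WT Ammon's horn. It lay above all 6 Ammon's horn libraries, 1.33-fold higher (95% interval 1.17 to 1.52; log2 fold change 0.41, SE 0.086, adjusted p 0.00642 by edgeR). The exon-bin sums gave a log2 fold change of 0.51 (SE 0.090). Bin 40 of Pde10a had 47 reads in the dentate gyrus and 23, 18 and 28 in KO mice, against 22, 8 and 14 in WT Ammon's horn. Its usage log2 fold change was 1.15 (SE 0.37, adjusted p 0.383 by edgeR), and it was called, with an adjusted p of 0.0434, without WT replicate 1.

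Since Pde10a, Pde1b and Pde7b are known from striatal medium spiny neurons, markers of those cells were measured in the same libraries. The 9 marker genes summed to 34.5 CPM in the dentate gyrus, against 38.7 to 41.5 CPM in WT Ammon's horn. Drd2 and Adora2a, which define the cells, were at 1.99 and 1.66 CPM in the dentate gyrus, against 1.14 to 1.17 CPM and 1.23 to 1.66 CPM in WT Ammon's horn. Of the 9 genes, 1 was called higher and 2 lower, where 11.2% of all genes were called higher and 10.9% lower. Rgs9 and Rarb made up most of the sum, at 13.4 and 9.75 CPM in the dentate gyrus. The part of these cells in the higher values of Pde10a, Pde1b and Pde7b was not tested.

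Markers of several cell types moved with the phosphodiesterases in the dentate gyrus. With the lower ones moved the markers of CA1 pyramidal cells (7 of 7 called lower), oligodendrocytes (8 of 8), interneurons (6 of 8) and microglia (4 of 8). The interneuron markers summed to 452 CPM in the dentate gyrus, against 562 to 640 CPM in WT Ammon's horn, and the microglia markers to 349 CPM, against 391 to 403 CPM. With the higher ones moved the markers of granule cells (10 of 10 called higher). Of 9 markers of CA2 and CA3 pyramidal cells, 4 were called higher and 2 lower. Of 8 endothelial and mural cell markers, 1 was called higher and 2 lower. Of 6 astrocyte markers and of 8 choroid plexus markers, 0 were called. Over all genes, 11.2% were called higher and 10.9% lower. The part of these cell types in the values was not tested.

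In KO mice, none of the 226 tested exon bins was called for usage, at a background of 0.00301% of 166154 bins. With diffSplice, limma-voom also called 0 of them, where it called 5 of all bins. At an unadjusted p under 0.05 there were 7 in edgeR, where 1.72% of all bins passed. A missed threshold does not show that usage was alike in the 2 groups. The smallest p among them belonged to Pde8b bin 4, with 65, 206 and 253 reads in KO mice, against 89, 87 and 157 in WT Ammon's horn. Its usage log2 fold change was 0.63 (SE 0.18, adjusted p 1.0 by edgeR). Knockout replicate 1 lay below every wild-type library and the other 2 knockout libraries above them; without that replicate the bin was called, at 0.95 (adjusted p 3.45e-06). Bins 10 and 12 of Pde4a had 17, 11 and 13 and 13, 12 and 10 reads in KO mice, against 23, 34 and 23 and 22, 31 and 15 in WT Ammon's horn, with usage log2 fold changes of -0.82 for each (SE 0.26 and 0.28, adjusted p 1.0 by edgeR).

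For each gene with no called bin, the bin with the smallest p is given here, and none of these reached an adjusted p under 0.05 in edgeR. In the dentate gyrus, Pde4a bin 14 had 40 reads, against 24, 24 and 18 in WT Ammon's horn (usage log2 fold change 1.05, SE 0.30, adjusted p 0.416). Pde1a bin 4, Pde1b bin 16 and Pde1c bin 18 had usage log2 fold changes of -0.35, -0.16 and -0.99, Pde4d bin 53 of -1.08 and Pde8b bin 37 of 0.63, each with an adjusted p of 1.0. In KO mice, Pde1c bin 15 had 16, 16 and 11 reads, against 5, 7 and 10 in WT Ammon's horn (usage log2 fold change 0.79, SE 0.36), and Pde10a bin 40 had a usage log2 fold change of 0.74 (SE 0.32). Those of Pde1a bin 10, Pde1b bin 13, Pde2a bin 3, Pde4b bin 18, Pde4d bin 48 and Pde7b bin 5 were -0.46, 0.13, -0.15, -0.31, -0.42 and 0.53. All of these knockout values had an adjusted p of 1.0. The bins 8 and 9 of Pde4b and bin 12 of Pde4a were chosen after their values were seen.

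Other genes of cyclic nucleotide signalling were counted from lists chosen with earlier results of these data known. Of 14 other phosphodiesterases, 1 was called higher in the dentate gyrus and 3 lower, where 11.2% of all genes were called higher and 10.9% lower. The counts of the lists that follow are to be read beside these same shares, and with so few genes in a list none of them is a result about the list. Pde7a, the paralog of Pde7b, was at 21.7 CPM in the dentate gyrus, against 13.0, 14.2 and 14.7 CPM in WT Ammon's horn (log2 fold change 0.63, SE 0.11). Pde11a, a dual-substrate enzyme, was at 8.49 CPM, against 19.2, 16.4 and 18.1 CPM (log2 fold change -1.08, SE 0.12). Pde8a and Pde6d were also lower, by log2 fold changes of -0.60 and -0.32.

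Of the 10 adenylyl cyclases, which make cyclic AMP, 2 were called higher and 2 lower, against 11.2% and 10.9% of all genes. Adcy1, activated by calcium and calmodulin like the PDE1 enzymes, had 968 CPM in the dentate gyrus, against 385, 404 and 410 CPM in WT Ammon's horn (log2 fold change 1.28, SE 0.11). Adcy10, the soluble cyclase, rose as well, by a log2 fold change of 1.20, and Adcy3 and Adcy5 fell, with -0.57 and -0.54. Of 12 guanylyl cyclases and nitric oxide synthase genes, 2 were called higher, the natriuretic peptide receptors Npr1 and Npr2 (log2 fold changes 0.75 and 0.39), and 0 lower, against 11.2% and 10.9% of all genes.

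Of 22 effectors of the nucleotides counted here, 3 were called higher and 4 lower, against 11.2% and 10.9% of all genes. Prkar1b, a regulatory subunit of protein kinase A, was at 271 CPM in the dentate gyrus, against 468, 482 and 484 CPM in WT Ammon's horn (log2 fold change -0.82, SE 0.073). Rapgef4, an exchange factor opened by cyclic AMP, and the channel gene Hcn2 were lower by -0.60 and -0.59 on the log2 scale, and Bves, a Popeye-domain protein that binds cyclic AMP, was higher by 0.85. The calmodulin genes Calm2 and Calm3 were lower (log2 fold changes -0.46 and -0.28). In KO mice 0 genes of these 5 lists were called by edgeR.

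**Figure D5:**
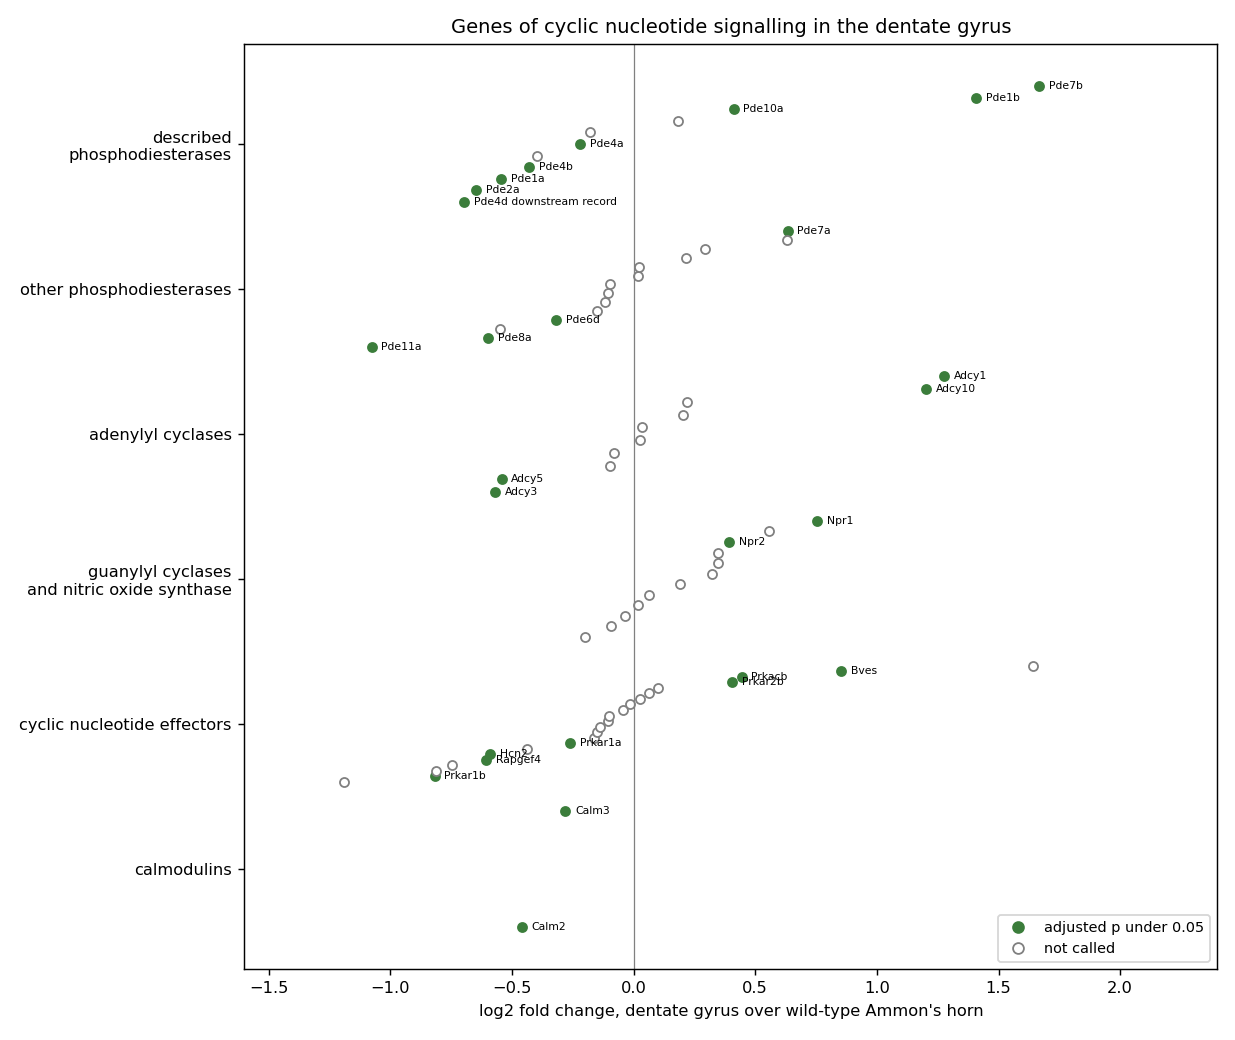
Log2 fold change of each gene, dentate gyrus over WT Ammon's horn, for the described phosphodiesterases and 5 lists of cyclic nucleotide signalling. Filled points have an adjusted p under 0.05 in edgeR and are named; Pde7b at 1.67, Pde1b at 1.41, Adcy1 at 1.28 and Adcy10 at 1.20 are the highest called, and Pde11a at -1.08 and Prkar1b at -0.82 the lowest.

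For the 2 genes at least 2-fold different in the dentate gyrus, the genes with the most similar pattern over the 7 libraries were sought among 13230 genes of at least 5 CPM, by the root mean square difference of centred log2 CPM. For Pde1b these were Gm20319, Il1rap and Lhfpl2, at differences of 0.053, 0.065 and 0.066. Il1rap, which stands in the list of granule cell markers, had 80.1 CPM in the dentate gyrus, against 27.6, 29.5 and 31.9 CPM in WT Ammon's horn. For Pde7b they were Sipa1l2, Ccdc85a and Kif26b, at 0.11, 0.11 and 0.12. Sipa1l2 had 116 CPM in the dentate gyrus, against 39.6, 36.4 and 39.8 CPM in WT Ammon's horn. Pde1b and Pde7b were chosen for their dentate gyrus value, so genes with a like dentate gyrus difference come out nearest. These neighbours, Il1rap among them, are therefore no separate support for the difference.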

How the data were processed

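Polyadenylated RNA of 7 hippocampal libraries was sequenced. The authors deposited raw counts, not normalised: a table of gene counts and, per library, counts in exon bins. Per the submitters' processing notes, the software was TopHat2 (2.0.8b), Trim Galore (0.3.5), DESeq2 (1.0.19) and bedtools (2.17.0), with mm10, each without a stated role. The members and lists were chosen with earlier results of these data known.

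For genes, edgeR 4.0.16 in R 4.3.3 was run on the counts (TMM, its low-count filter, quasi-likelihood F test, Benjamini-Hochberg adjustment over all genes, threshold 0.05): the 6 Ammon's horn libraries for KO against WT, and all 7 in 3 groups for the dentate gyrus. Exon usage was tested with diffSpliceDGE on bins that reached 10 reads in 3 or more libraries, in genes with 2 or more such bins. SE is the log2 fold change divided by the root of F. Alternatives were DESeq2 1.42.0, limma 3.58.1, other size factors and filters, exon-bin sums and leaving out libraries. The fits were tested on simulated data. Bin coordinates were rebuilt from GENCODE M21 for 6 members, of which Pde1b and Pde2a matched in the number of bins but not at the gene ends. The bins of Pde1c, Pde4a, Pde8b and Pde10a are named by number. The text names all members, each called bin (for members without one, the bin of smallest p), up to 4 called genes per list with the largest change, and 3 genes most like each member at least 2-fold different in the dentate gyrus. Some genes of the signalling lists are not reported here.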

Additional observations from a re-analysis of the deposited data

How the results depend on the processing

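In the dentate gyrus, the signs of all 11 log2 fold changes held under the 13 alternatives to each, and of 143 values 10 lost and 4 gained a call. The losses were all of Pde4a, and the gains were Pde1c (DESeq2, exon-bin sums, without WT replicate 3) and Pde4d (exon-bin sums). The count of called records was 7 to 9 under these settings, 7 to 8 on leaving out 1 library, and 2 at a change of at least 2-fold. Of all genes, these settings called 4251 to 5752, leaving out 1 library 4814 to 5346, and the 2-fold threshold 974. The main fit called 5392 of 24486 genes. Called bins numbered 2 with limma-voom, where 553 of all 169072 bins were called. They numbered 1 to 2 on leaving out 1 library (2 without WT replicate 1), where 196 to 512 of all bins were called. In KO mice 0 records were called under every alternative that kept more than 1 KO library, where 8 to 119 of all genes were called. Called bins numbered 0 to 1 on leaving out 1 library (1 without KO replicate 1), where 5 to 8 of all bins were called.

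Of 143 log2 fold changes in KO mice, 12 changed sign, none of them called in either analysis. With exon-bin sums these were Pde4d at -0.066, Pde7b at 0.037 and Pde10a at -0.033. On leaving out 1 library, Pde10a gave -0.024 to 0.084, Pde8b -8.9e-06 to 0.29, Pde7b -0.17 to 0.085, Pde4d -0.020 to 0.034 and the Pde4d downstream record -0.020 to 0.072. Without KO replicates 1 and 3, the libraries with the highest choroid plexus markers, which leaves 1 KO library, Pde1a gave 0.034, Pde2a 0.011, the Pde4d downstream record -0.016 and Pde7b 0.071; this setting and the removal of Rps3a3 reads were chosen after seeing the data. The cause of these changes was not tested. With 1 dentate gyrus library, its own spread is unknown, and low-count bins limit what exon usage can show. No paired analysis was possible because the labels number no replicates; the numbers used here follow the order of the samples and pair none of them.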

Other observations

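Pde8b bin 3 had 37, 157 and 171 reads in KO mice and 110 in dentate gyrus, against 72, 84 and 124 in WT Ammon's horn, so it varied across the KO libraries as bin 4 did. KO replicate 1 was the lowest of the 7 libraries in both bins. This bin was chosen after its values were seen.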
